A study of Homo sapiens with 27 samples.

Results

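The 8 genes described here encode the enzymes that carry glucose to the triose phosphates. They are the hexokinases HK1 and HK2, the glucose-6-phosphate isomerase GPI, the phosphofructokinases PFKM, PFKL and PFKP, and the aldolases ALDOA and ALDOC. They were taken by gene name from 20268 protein-coding genes, and all 8 were found in each of 4 tables that count sequenced RNA 3′ ends in the 3′ UTR (19540 genes), in introns (20216 genes), in coding exons (20268 genes) and in the 10 kb beyond the gene's end (20266 genes). The 27 libraries were made by poly(A)-ClickSeq (PAC-seq), in which each read marks the 3′ end of 1 polyadenylated RNA. For that reason levels of different genes can be compared without dividing by length. The cells were 3 human prostate cancer lines. LNCaP is hormone-sensitive, LNCaP95 was derived from it and no longer needs androgen to grow, and 22Rv1 is hormone-insensitive. Each line carried, by stable lentiviral transduction, a control shRNA (CTRL sh) or an shRNA that targets CPSF1, of which there were 2 (CPSF1 sh1, CPSF1 sh2). Each of these 9 groups had 3 biological replicates. CPSF1 is the largest protein of the complex that recognises poly(A) signals and has the pre-mRNA cut there. The question of the comparison is what its loss does to where, and how much, RNA of these genes ends. All groups are stably transduced cultures of established lines, and the controls also carry a lentivirus and an shRNA.

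Glucose is trapped in the cell by hexokinase as glucose 6-phosphate, which GPI turns into fructose 6-phosphate. Phosphofructokinase adds a further phosphate in the main committed and regulated step of glycolysis, and aldolase splits the product into the triose phosphates. Several of these steps have isozymes encoded by separate genes: HK1 is the broadly expressed hexokinase and HK2 the inducible form often raised in tumours, PFKM, PFKL and PFKP are the muscle, liver and platelet subunits that assemble into mixed tetramers, ALDOA is the broadly expressed aldolase and ALDOC the form typical of brain. A pre-mRNA is normally cut a short way beyond a hexamer, most often AATAAA, which that complex binds, and a poly(A) tail is added at the cut. When a site is not used the polymerase continues and RNA can end further downstream.

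The total count over the 4 tables lay between 3856706 and 11239076 reads for LNCaP libraries, between 5431900 and 9100287 for LNCaP95 libraries and between 3452413 and 12425417 for 22Rv1 libraries. The 10 kb table held 170330 to 728430 reads per library, so single genes there rest on few reads. CPSF1 itself was at 153.1 ± 23.5 counts-per-million units (CPM; SD, n = 3) in the 3′ UTR table in LNCaP controls, 91.8 ± 22.5 in LNCaP95 controls and 159.7 ± 34.7 in 22Rv1 controls. With knockdown it fell by 1.19 ± 0.17, 1.05 ± 0.18 and 0.73 ± 0.14 on the log2 scale (SE; edgeR quasi-likelihood adjusted p = 8.31e-05, 0.000301 and 0.0165). The fitted fall was smallest in 22Rv1, but whether the fall of CPSF1 differed between lines was not tested. The 7 luminal prostate markers summed to at least 2183.2 CPM in every library. KRT5 was at 0 in all libraries, the 3 basal markers summed to at most 6.552 CPM and the leukocyte markers to at most 0.6663 CPM. The fibroblast markers reached 41.32 CPM in LNCaP95, where COL1A1 was present and DCN and LUM were at 0. No library pair was identical.

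Of the 8 genes, 7 have an annotated end with AATAAA within its last 40 bases. At the outermost annotated end alone, HK1, GPI and PFKL lack it. Only that end was examined over all 19540 genes of the 3′ UTR table. There 57.7% carry AATAAA in that window, and 70.98% carry AATAAA or ATTAAA. Only the gene's own strand was searched. The windows are shown because they are the sites that reads in the 10 kb table lie beyond. They are given 5′ to 3′ on the gene's strand, in the hg19 (GRCh37) build, with AATAAA in capitals, and each lies in annotated 3′ UTR.
HK2, chr2:75120443-75120472, plus strand: ttaactattattAATAAAttttaacatttt
GPI, chr19:34891202-34891231, plus strand: cccatgtagaaaAATAAAgatgccacggag
PFKM, chr12:48540156-48540185, plus strand: agagaaattaacAATAAAtatcaagcactg
PFKL, chr21:45747203-45747232, plus strand: accttttctagaAATAAAatcaccctgact
PFKP, chr10:3179863-3179892, plus strand: cttctgtttttaAATAAAggccctaaatgc
ALDOA, chr16:30081701-30081730, plus strand: ggcacactgccaAATAAAcagctatttaag
ALDOC, chr17:26900139-26900168, minus strand: taccatacagcaAATAAAtggtagcaaaac

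For HK1 neither AATAAA nor ATTAAA was found in the last 40 bases of its annotated ends. GPI, PFKM and PFKL have many more annotated ends at which a match could lie. At the outermost end GPI and PFKL lack both hexamers too, so the lack there is not particular to HK1. The final 30 bases of HK1 are shown because HK1, HK2 left aside, had the largest fitted increases in the 10 kb table in LNCaP, LNCaP95 and 22Rv1. A match is a description of the letters only, and so is its absence.
HK1, chr10:71161609-71161638, plus strand: atgacctagtaaactttgtaccaattcaaa

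GPI has a further annotated end that stops in a genomic run of A, a kind of sequence at which priming inside an RNA is known to occur. Whether such priming entered the counts was not tested. This end fixes where the 10 kb of GPI begins, downstream of the AATAAA-bearing end at 34891240.
GPI outermost end, chr19:34893032-34893061, plus strand: gatcagtgtactgttgtaaaaaaaaaaaaa

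The 10 kb regions ran from each gene's outermost 3′ UTR limit with same-strand exons removed. They cover chr10:71161938-71171937 for HK1, chr19:34893361-34903360 for GPI (9172 bases counted), chr16:30082078-30092077 for ALDOA (9630 bases) and chr17:26889834-26899833 for ALDOC (7906 bases). A second annotation places further same-strand genes there. They are long noncoding RNAs for PFKL (ENSG00000184441, 4618 bases shared), PFKP (ENSG00000278419, 7155, and PITRM1-AS1, 6380) and PFKM (ENSG00000274124, 312). For ALDOC it is the protein-coding RSKR (10000 bases). Reads in such overlaps cannot be assigned to a transcript. On the gene's strand the 10 kb regions hold 2 copies of AATAAA for HK1, 17 for HK2, 7 for GPI, 13 for PFKM, 2 for PFKL, 11 for PFKP, 8 for ALDOA and 6 for ALDOC. The median of 20127 such regions is 0.8 copies per kb, and 8.476% of them have fewer per kb than HK1 and PFKL. The study designed qPCR primers inside 3 of these regions, which fix positions where downstream RNA was assayed. The forward primers start 1647 bases beyond the annotated end for GPI, 352 bases for PFKM and 1872 bases for ALDOA.
GPI primer, chr19:34894708-34894727, plus strand: ctggcaccaaatttcaacaa
PFKM primer, chr12:48540539-48540558, plus strand: gaagagggaaggatggctca
ALDOA primer, chr16:30083613-30083633, plus strand: gcctagctcattcaactctgg

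In control cells ALDOA and GPI were the most abundant of the 8 in LNCaP, at 718.3 ± 52.8 and 670.2 ± 37.9 CPM in the 3′ UTR table (SD, n = 3), followed by ALDOC at 288.9 ± 43.1. The other 5 genes lay between 20.6 ± 6.02 CPM (HK2) and 79.1 ± 6.23 CPM (PFKL). LNCaP95 controls held more of 6 genes: HK2 reached 191.1 ± 49.0 CPM, ALDOC 740.6 ± 81.4, GPI 1215 ± 49.98 and ALDOA 1109 ± 64.6. In 22Rv1 controls GPI and ALDOA were at 342.7 ± 15.3 and 311.7 ± 39.3 CPM, and PFKP was near the detection limit at 4.45 ± 1.84 CPM against 55.9 ± 7.08 in LNCaP and 122 ± 7.11 in LNCaP95. ALDOA and GPI overlapped between their control libraries in LNCaP and 22Rv1 and did not in LNCaP95, where GPI was the higher. In 22Rv1 the control libraries of HK1 and PFKL overlapped, as did those of PFKL and PFKM and those of PFKM and HK2. These are bulk samples, in which fewer cells of a type and less RNA per cell cannot be told apart.

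Between control groups, 6 of the 8 genes were called higher in LNCaP95 than in LNCaP (39.3% of all tested genes were called in either direction): HK2 by 3.18, HK1 by 1.37, ALDOC by 1.33, PFKP by 1.10, GPI by 0.83 and ALDOA by 0.60 log2 units. Against LNCaP, 22Rv1 differed in 5 of 8 (background 47.2%), with HK2 1.06 higher, PFKP −3.76, ALDOC −1.26, ALDOA −1.20 and GPI −0.97. Against LNCaP95, 22Rv1 was lower in 6 of 8 (background 54.6%), from −1.13 for HK1 to −4.86 for PFKP. PFKM and PFKL were not called in any of these comparisons. Differences between control groups were thus common over all genes, and with only 8 genes the counts for 22Rv1 are not far from those shares. The largest difference was that of HK2 between LNCaP95 and LNCaP, and that of PFKP in both comparisons of 22Rv1.

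**Figure D1:**
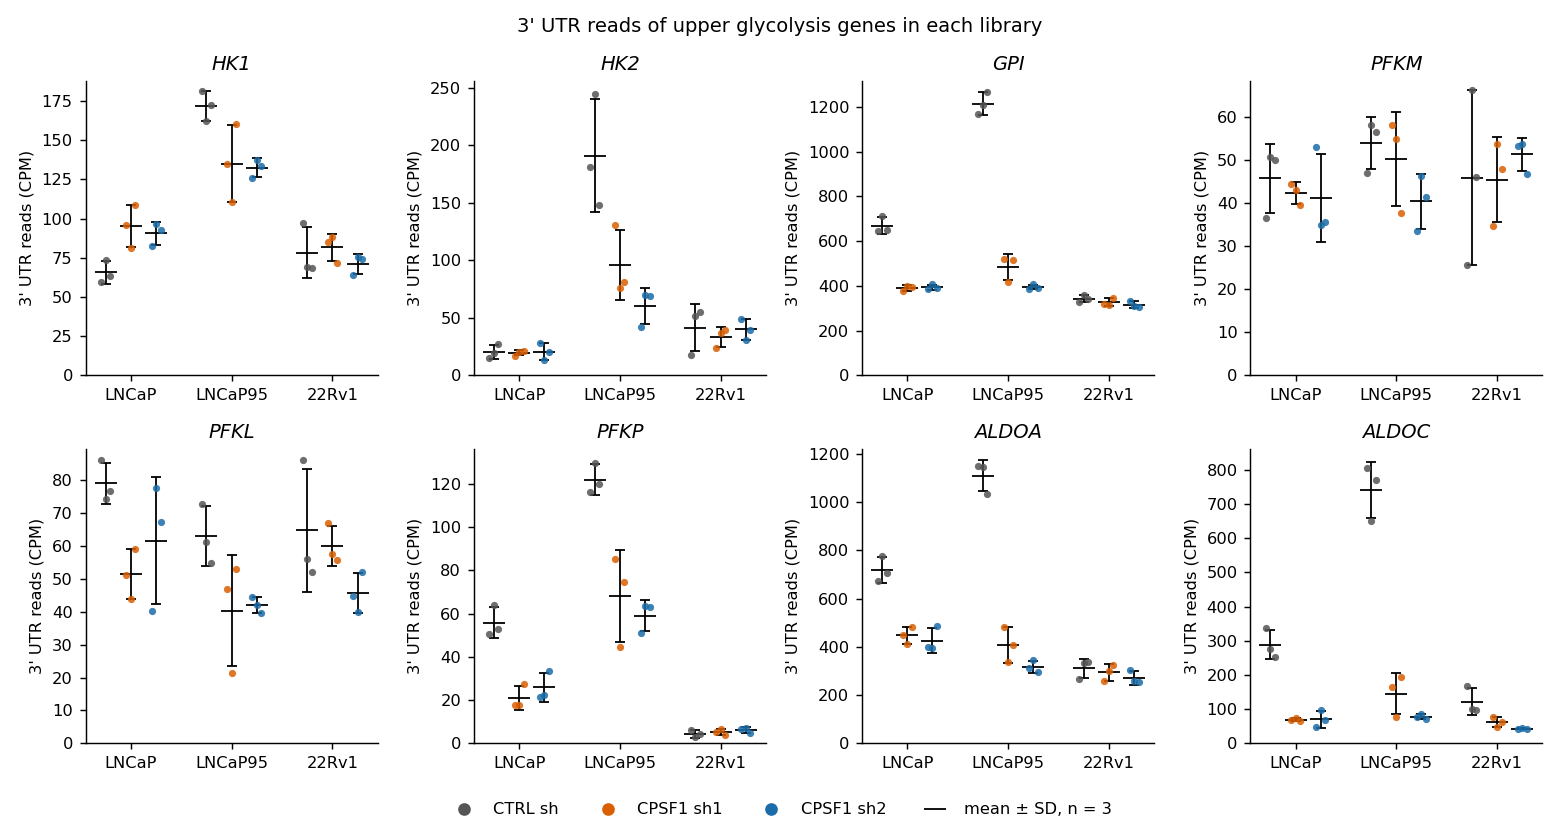
3′ UTR level of each gene (CPM, linear axis) in every library of LNCaP, LNCaP95 and 22Rv1, with 1 point per library and separate colours for CTRL sh, CPSF1 sh1 and CPSF1 sh2. The knockdown libraries of ALDOC lie below the controls in all lines, whereas GPI, ALDOA and PFKP separate from the controls in LNCaP and LNCaP95 only.

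With knockdown of CPSF1 the 3′ UTR reads fell for 4 of these 8 enzymes in LNCaP, 6 in LNCaP95 and 1 in 22Rv1. Tests here were edgeR quasi-likelihood F-tests of 6 knockdown against 3 control libraries, adjusted over all tested genes, and a gene was called at an adjusted p below 0.05. In LNCaP 4 of the 8 genes fell (GPI, PFKP, ALDOA, ALDOC) against a background of 10.1% of tested genes, and 1 rose (HK1; background 8.24%). In LNCaP95 6 of 8 fell (HK2, GPI, PFKL, PFKP, ALDOA, ALDOC; background 15.2%) and 0 rose (background 15.2%). In 22Rv1 only ALDOC fell (background 0.791%), and 0 rose (background 0.678%). The 0 rises held also at an unadjusted p under 0.05 in both lines, and DESeq2 called 0 as well. With the tables scaled to their summed library size, all-gene calls in the 3′ UTR table moved from 1719 higher and 1715 lower to 1246 and 2136 in LNCaP95 and from 78 and 91 to 63 and 235 in 22Rv1. In LNCaP they moved from 908 and 1111 to 1261 and 596 when composition factors were dropped as well. The count of the 8 that fell was then 4, 7 and 1 with these factors and 4, 5 and 1 without. The median log2 fold change of the 8 was −0.61, −1.09 and −0.13 for the lines in the same order, beside 0.02, 0.01 and −0.01 over all tested genes.

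The 10 kb table moved the other way for some of the same genes. Reads there rose for HK1, GPI, PFKM and ALDOA in LNCaP (4 of 8; background 9.52%), for HK1, GPI and ALDOA in LNCaP95 (3 of 8; background 17.6%) and for HK1 and GPI in 22Rv1 (2 of 8; background 7.25%). They fell for ALDOC in LNCaP95 and 22Rv1 (1 of 8 each; background 10.1% and 2.77%) and for 0 genes in LNCaP (background 5.2%; 0 at an unadjusted p under 0.05, and 0 by DESeq2). Because the scaling was done within each table, it removes a rise shared by the whole 10 kb table. When the 4 tables were instead scaled to their summed library size, all-gene calls in the 10 kb table moved from 1280 higher and 699 lower to 2325 and 141 in LNCaP, from 2606 and 1493 to 5259 and 241 in LNCaP95, and from 1042 and 398 to 2700 and 57 in 22Rv1, with the all-gene median moving from 0.13 to 0.62, from 0.22 to 1.11 and from 0.19 to 0.73 log2 units. Under that scaling 6, 7 and 5 of the 8 genes rose. The median over the 8 on the original scale was 0.98, 1.17 and 0.51.

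At the first step, HK1, the constitutive hexokinase, was the gene of the 8 that rose in the 3′ UTR table, and it did so in LNCaP. There its controls were at 59.85, 73.47 and 63.57 CPM and its knockdown libraries ranged from 81.49 to 108.4 with a median of 94.38. All knockdown libraries exceeded all controls, and HK1 rose by 0.50 ± 0.14 log2 units (adjusted p = 0.0177 by edgeR). The call was lost without control replicate 1 (0.44, adjusted p = 0.0991) or control replicate 3 (0.48, adjusted p = 0.0893). In LNCaP95 the controls were at 181.3, 162.3 and 172.5 CPM and CPSF1 sh1 and sh2 libraries at 110.5 to 160.1, all below the controls, with a difference of −0.34 ± 0.13 that missed the threshold (adjusted p = 0.0563). DESeq2 called it (adjusted p = 0.033), as did edgeR with summed library sizes (−0.44, adjusted p = 0.0342) and without CPSF1 sh1 replicate 3 (−0.40, adjusted p = 0.024). In 22Rv1 the difference was −0.03 (adjusted p = 0.949) and the groups overlapped.

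Downstream of HK1 the fitted change was the largest of the genes, HK2 left aside, although it rests on few control reads. In LNCaP95 the controls had 2, 6 and 5 reads in the 10 kb table, or 6.142, 22.08 and 15.74 CPM of that table, and the knockdown libraries 97.64 to 315.2 CPM with a median of 263.2. HK1 rose there by 3.99 ± 0.42 log2 units (adjusted p = 4.45e-13 by edgeR), and by 2.50 ± 0.41 in LNCaP (adjusted p = 3.00e-07) and 2.09 ± 0.34 in 22Rv1 (adjusted p = 9.40e-07). The groups did not overlap in any line. As a share of the gene's reads in all 4 tables, the 10 kb of HK1 went from 1.33% ± 0.81 (SD, n = 3) to 8.59% ± 3.29 (n = 6) in LNCaP, from 0.408% ± 0.222 to 13.8% ± 6.08 in LNCaP95 and from 2.21% ± 1.21 to 11.8% ± 2.38 in 22Rv1.

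HK2, the inducible hexokinase, fell in LNCaP95 and was not called in LNCaP or 22Rv1. The difference between lines passed the test against LNCaP (−1.22, adjusted p = 0.0381 by edgeR) and missed it against 22Rv1 (1.02, adjusted p = 0.0690). With a term for replicate number in the model, the difference against LNCaP missed the threshold too (−1.20, adjusted p = 0.0652 by edgeR). In LNCaP95 the controls were at 181.1, 244.3 and 147.9 CPM in the 3′ UTR table and the knockdown libraries ranged from 41.98 to 130.6 with a median of 72.96. No knockdown library reached a control, and HK2 fell by 1.26 ± 0.22 log2 units (adjusted p = 0.00037 by edgeR). In LNCaP, where HK2 was low, the controls were at 15.18, 19.64 and 27.1 CPM, the knockdown libraries overlapped them, and the difference was −0.03 (adjusted p = 0.945). In 22Rv1 the first control, at 17.89 CPM, was far from the others at 51.45 and 54.91, and the difference was −0.25 ± 0.26 (adjusted p = 0.731). HK2 intron reads also fell in LNCaP95, from 106, 67 and 92 in the controls to between 30 and 48 (−0.95 ± 0.20, adjusted p = 0.000854).

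The HK2 10 kb region held too few reads for a fold change. LNCaP controls had 0 reads in all libraries, CPSF1 sh1 had 2, 2 and 3, and CPSF1 sh2 had 4, 4 and 2. LNCaP95 controls had 0, 4 and 0 reads, CPSF1 sh1 had 10, 11 and 6, and CPSF1 sh2 had 9, 11 and 1. In 22Rv1 the controls had 0, 3 and 0 reads and the knockdown libraries 0 to 13. A count of 0 allows up to 3 reads, and 2 of 6 knockdown libraries in LNCaP, 5 in LNCaP95 and 4 in 22Rv1 held more than that. On the table's own scale HK2 was not called in any line. With summed library sizes it was called higher in LNCaP (adjusted p = 0.0258 by edgeR) and LNCaP95 (adjusted p = 0.0161). In LNCaP95 leaving out the second control, the only control with reads, brought a call (adjusted p = 0.0113).

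At the second step, the isomerase GPI fell in the 3′ UTR table in LNCaP and LNCaP95, with little spread among the knockdown libraries. In LNCaP the controls were at 646.4, 713.9 and 650.4 CPM and the knockdown libraries between 376.2 and 406.8 with a median of 391.6 (−0.77 ± 0.10, adjusted p = 4.85e-05 by edgeR). In LNCaP95 they were at 1168.3, 1210.2 and 1267.8 against 387.1 to 522.4 with a median of 413.2 (−1.44 ± 0.13, adjusted p = 3.13e-07). The groups were far apart in both lines. In 22Rv1 the controls were at 327.2, 357.7 and 343.1 CPM, the knockdown libraries at 304.8 to 347.1, and the groups overlapped (−0.11 ± 0.10, adjusted p = 0.704).

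Its 10 kb reads rose in every line, 22Rv1 included. The controls were at 49.13, 84.64 and 88.13 CPM of the 10 kb table in LNCaP95 (16, 23 and 28 reads) and the knockdown libraries at 408.5 to 645.2 (median 548.4), a rise of 2.86 ± 0.30 (adjusted p = 3.66e-13 by edgeR). In LNCaP GPI rose by 1.33 ± 0.26 (adjusted p = 2.02e-05), from 136.4, 118.8 and 70.05 CPM to between 216.2 and 360.5. In 22Rv1 it rose by 1.22 ± 0.26 (adjusted p = 0.000332), from 85.34, 90.45 and 82.6 CPM to between 133.1 and 273.8. The share of GPI reads in the 10 kb went from 1.04% ± 0.38 to 6.14% ± 2.07 in LNCaP, from 0.349% ± 0.096 to 12.4% ± 3.796 in LNCaP95 and from 2.01% ± 0.68 to 6.75% ± 2.17 in 22Rv1. Intron reads of GPI fell in LNCaP (281, 290 and 265 in the controls, 87 to 242 with knockdown; −0.60 ± 0.14, adjusted p = 0.00346) and in LNCaP95 (386, 249 and 429 against 90 to 210; −0.90 ± 0.18, adjusted p = 0.000361), and its coding-exon reads were at most 11 in any library.

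The 10 kb of GPI holds other annotated genes on the same strand, and their reads cannot be assigned to a transcript. Introns of RP11-618P17.4 share 6226 bases with it and carried 7, 12 and 13 reads in LNCaP95 controls and 194 to 376 with knockdown, beside 205 to 392 in the 10 kb of GPI. These intron reads rose by 2.89, 4.86 and 3.27 log2 units in LNCaP, LNCaP95 and 22Rv1. PDCD2L, whose introns share 7244 bases, changed by 0.43 (adjusted p = 0.0517 by edgeR), 0.57 (adjusted p = 0.0106) and 0.21 (adjusted p = 0.702) in its own 3′ UTR. Only in LNCaP95 was that change called.

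At the third step, PFKP fell in LNCaP and LNCaP95, PFKL fell in LNCaP95 near the threshold, and PFKM was not called in the 3′ UTR table. PFKP, the platelet-type subunit, was at 50.8, 63.98 and 52.93 CPM in LNCaP controls and between 17.62 and 33.49 with a median of 22.02 in knockdown (−1.25 ± 0.18, adjusted p = 0.000127 by edgeR). In LNCaP95 it was at 116.1, 129.9 and 119.9 against 44.51 to 85.3 with a median of 63.22 (−0.91 ± 0.16, adjusted p = 0.000418). The groups were separate in both lines. In 22Rv1 the gene was barely expressed, at 2.74 to 6.39 CPM in the controls, and overlapped with knockdown (0.42 ± 0.34, adjusted p = 0.640). Its intron reads fell in LNCaP, from 64, 76 and 59 to between 8 and 46 (−0.83 ± 0.24, adjusted p = 0.0186). That call was lost without control replicate 1 (−0.79, adjusted p = 0.0807) or 2 (−0.81, adjusted p = 0.0813).

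PFKP had few reads beyond its end, 4, 6 and 8 in LNCaP controls and 9, 7 and 3 in LNCaP95 controls, and its 10 kb reads were not called in any line on the table's own scale. With summed library sizes they rose in LNCaP95, by 1.79 (adjusted p = 0.00352 by edgeR, against 0.89 and 0.168). There the share of PFKP reads in the 10 kb was 1.205%, 0.979% and 0.455% in the controls and 3.158% to 8.787% with knockdown, without overlap.

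PFKL, the liver-type subunit, was at 72.87, 61.24 and 54.81 CPM in LNCaP95 controls and at 21.24 to 52.98 with a median of 43.38 in knockdown. The groups touched closely without overlapping, and PFKL fell by 0.59 ± 0.20 log2 units (adjusted p = 0.0314 by edgeR). Leaving out control replicate 1 moved it to −0.47 (adjusted p = 0.168), and it was lost too without control replicate 2 (adjusted p = 0.0549), sh2 replicate 2 (adjusted p = 0.0521) or sh2 replicate 3 (adjusted p = 0.0573), and with summed library sizes and no composition factors (−0.53, adjusted p = 0.0587). In LNCaP the difference was −0.50 ± 0.18 (adjusted p = 0.0609), and it was called without sh2 replicate 2 (adjusted p = 0.0100) or sh2 replicate 3 (adjusted p = 0.0434) and with no filter on low counts (adjusted p = 0.0355). In 22Rv1 it was −0.28 ± 0.19 (adjusted p = 0.542). The 10 kb reads of PFKL were not called in any line under the original scale (0.49, 0.65 and 0.22 log2 units), although they rose by 0.98, 1.55 and 0.82 with summed library sizes.

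PFKM, the muscle-type subunit, had 3′ UTR reads that overlapped between groups in each line. It was at 36.5, 50.74 and 50.14 CPM in LNCaP controls and 34.95 to 53.01 in knockdown (−0.13 ± 0.16, adjusted p = 0.626 by edgeR), and the values were −0.22 ± 0.17 (adjusted p = 0.336) in LNCaP95 and 0.02 ± 0.21 (adjusted p = 0.976) in 22Rv1. Of the 8 genes it had the largest share of reads downstream already in controls, although its 3′ UTR share was larger still in each line. In the 10 kb were 21.1% ± 5.27 of its reads in LNCaP controls, 24.6% ± 3.47 in LNCaP95 and 45.8% ± 10.3 in 22Rv1. With knockdown the shares were 40.01% ± 9.06, 53.4% ± 7.71 and 59.2% ± 6.35.

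PFKM 10 kb reads rose in LNCaP, from 189.4, 176.6 and 169.6 CPM in the controls to between 219.3 and 330.1 (0.70 ± 0.23, adjusted p = 0.0271 by edgeR). No knockdown library was as low as a control, but the call was lost in 5 of 9 sets that left out 1 library, with 0.64 and adjusted p = 0.133 without control replicate 3. The other libraries were control replicates 1 (adjusted p = 0.0601) and 2 (0.0908), sh1 replicate 1 (0.0526) and sh2 replicate 1 (0.0686). In LNCaP95 the difference was 0.59 ± 0.25 (adjusted p = 0.0689), and it was called without sh2 replicate 1 (0.64, adjusted p = 0.0445). In 22Rv1 it was 0.32 ± 0.19 (adjusted p = 0.308), where control replicate 1 was at 321.3 CPM and the other controls at 620.2 and 444.3. With summed library sizes PFKM rose in both, by 1.48 in LNCaP95 (adjusted p = 2.05e-06) and 0.87 in 22Rv1 (adjusted p = 0.000327).

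At the fourth step, ALDOC fell in all 3 lines, with the largest fall of the 8 in each, and ALDOA fell in LNCaP and LNCaP95. ALDOC, the brain-type aldolase, was at 336.6, 277.3 and 252.7 CPM in LNCaP controls and 47.6 to 96.65 with a median of 67.33 in knockdown (−2.06 ± 0.16, adjusted p = 1.64e-07 by edgeR). In LNCaP95 it was at 804, 648.8 and 769 against 71.16 to 192.6 with a median of 81.98 (−2.71 ± 0.25, adjusted p = 4.51e-07). In 22Rv1 it was at 168.1, 100.2 and 98.25 against 42.05 to 78.04 with a median of 46.85 (−1.21 ± 0.21, adjusted p = 0.00737). The groups did not overlap in any line, and the 22Rv1 call remained in all 9 sets that left out 1 library (−1.35 to −0.92, adjusted p up to 0.0285).

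ALDOC was also the gene whose 10 kb reads fell. In LNCaP95 they went from 162.8, 92 and 144.8 CPM of the 10 kb table to between 20.05 and 51.62 (−2.13 ± 0.33, adjusted p = 2.34e-07 by edgeR). In 22Rv1 they went from 125.5, 90.45 and 71.21 CPM to between 35.98 and 67.01 (−0.91 ± 0.31, adjusted p = 0.0421). The latter call was lost without any of 6 libraries, with −0.65 and adjusted p = 0.247 without control replicate 1; the others were control replicate 2 (0.0820), sh1 replicate 2 (0.0592), and sh2 replicates 1 (0.0551), 2 (0.0940) and 3 (0.0908). It was lost too with summed library sizes (−0.42, adjusted p = 0.405 by edgeR) and without the filter on low counts (−0.88, adjusted p = 0.0592). In LNCaP the difference was −0.70 ± 0.41 (adjusted p = 0.269). ALDOC had 0 intron and 0 coding-exon reads in all 27 libraries. Its 10 kb region overlaps PIGS, whose own 3′ UTR changed by 0.08, −0.42 (adjusted p = 0.0436) and −0.28 log2 units in LNCaP, LNCaP95 and 22Rv1.

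ALDOA, the broadly expressed aldolase, was at 671.8, 775.7 and 707.3 CPM in LNCaP controls and 393.1 to 486.8 with a median of 430.8 in knockdown (−0.72 ± 0.11, adjusted p = 0.000257 by edgeR). In LNCaP95 it was at 1148.6, 1144.1 and 1034.6 against 294.3 to 482.6 with a median of 340.1 (−1.59 ± 0.14, adjusted p = 3.36e-07). The groups were separate in both lines and overlapped in 22Rv1 (−0.16 ± 0.12, adjusted p = 0.621).

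Downstream, ALDOA rose in LNCaP and LNCaP95. In LNCaP the controls were at 45.46, 48.16 and 132.7 CPM of the 10 kb table and the knockdown libraries between 124 and 208.3, with 1 control inside that range (1.27 ± 0.29, adjusted p = 0.000484 by edgeR). In LNCaP95 they were at 67.56, 47.84 and 100.7 against 179.6 to 226.8, without overlap (1.45 ± 0.30, adjusted p = 8.62e-05). In 22Rv1 the difference was 0.70 ± 0.28 (adjusted p = 0.0933), called without control replicate 1 (0.87, adjusted p = 0.0489) and with summed library sizes (1.23, adjusted p = 0.00130). The introns of PPP4C share 4409 bases with this region, and the 3′ UTR of PPP4C was not called in any line (0.29, 0.23 and 0.26 log2 units).

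**Figure D2:**
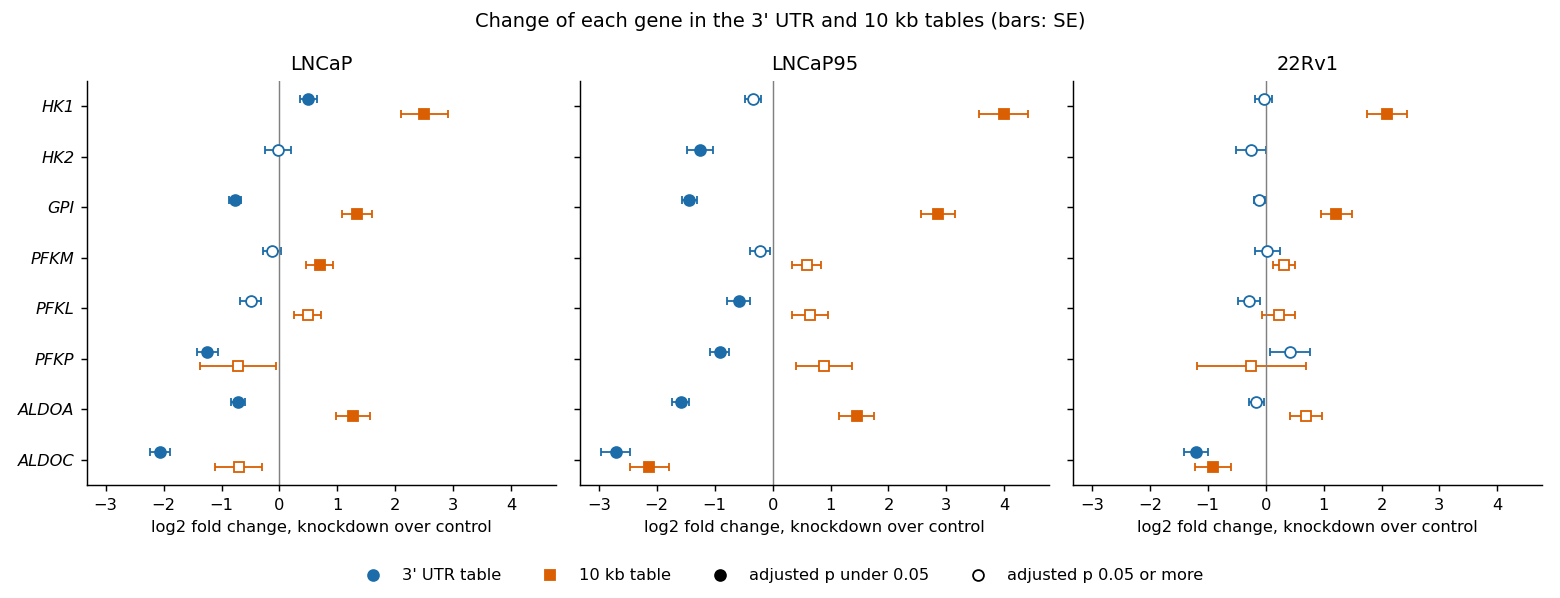
log2 fold change of knockdown over control (6 against 3 libraries) for each gene in the 3′ UTR and 10 kb tables of the lines, with standard errors and filled symbols for adjusted p below 0.05. HK1 and GPI sit to the right in the 10 kb table of every line, and ALDOC sits to the left in both tables. The 10 kb values of HK2, whose controls held 0 to 4 reads, were left out by choice and not by a limit on reads. PFKP is drawn although its 22Rv1 controls held 1 to 3 reads in the 10 kb table.

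To set downstream against 3′ UTR reads of the same gene, the difference between both log2 changes was tested (the downstream ratio). It rose for HK1, GPI, ALDOA and ALDOC in LNCaP (4 of 8; background 8.39%), for HK1, HK2, GPI, PFKL, PFKP and ALDOA in LNCaP95 (6 of 8; background 21.2%) and for HK1 and GPI in 22Rv1 (2 of 8; background 6.61%). HK2 left aside, GPI had the largest ratio change in LNCaP, 2.12 ± 0.32 (adjusted p = 2.65e-05 by edgeR), and in LNCaP95, 4.31 ± 0.35 (adjusted p = 1.22e-10), next to HK1 with 4.28 ± 0.50 (adjusted p = 8.66e-08). For ALDOC in LNCaP both changes were below 0, and the ratio rose by 1.38 ± 0.42 (adjusted p = 0.028 by edgeR). The median over the 8 was 1.70, 2.43 and 0.68, beside 0.30, 0.53 and 0.33 over all genes.

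Several of these ratio calls rest on single libraries. The HK2 call rests on controls with 0, 4 and 0 reads. HK1 in LNCaP was lost without control replicate 3 (1.61, adjusted p = 0.0693 by edgeR), PFKL in LNCaP95 without control replicates 1 (0.99, adjusted p = 0.144) or 2 (adjusted p = 0.0690) or sh1 replicate 2 (0.89, adjusted p = 0.0751), and GPI in 22Rv1 without control replicate 2 (adjusted p = 0.0547) or 3 (adjusted p = 0.0802). ALDOC in LNCaP was lost in 5 of 9 sets, with 1.11 and adjusted p = 0.172 without control replicate 2; the others were control replicates 1 (0.0550) and 3 (0.0662), sh1 replicate 3 (0.101) and sh2 replicate 1 (0.0690). PFKL in LNCaP and ALDOA in 22Rv1 missed the threshold and were called without sh2 replicate 2 (1.23, adjusted p = 0.0210) and without control replicate 1 (1.10, adjusted p = 0.0480), respectively. With summed library sizes all-gene calls of the ratio moved from 787 higher and 183 lower to 1445 and 54 in LNCaP, from 2148 and 684 to 4728 and 140 in LNCaP95, and from 667 and 82 to 2549 and 13 in 22Rv1, and 7, 8 and 4 of the 8 genes were called. The calls this added in LNCaP95 were PFKM (1.82, adjusted p = 0.000519 by edgeR) and ALDOC (1.67, adjusted p = 0.00374).

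All 6 knockdown libraries had a larger 10 kb share than all 3 controls for 7 of the 8 genes in LNCaP (all but PFKP), for 7 in LNCaP95 (all but HK2) and for 4 in 22Rv1 (HK1, GPI, PFKL, ALDOC). Among all genes with at least 50 reads in each library, the same held for 21.6% of 8403 LNCaP genes, 41% of 9775 LNCaP95 genes and 25.1% of 8487 22Rv1 genes, and among the members in that set for 6 of 7, 7 of 8 and 4 of 6. These shares are within a library and do not depend on scaling between tables.

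**Figure D3:**
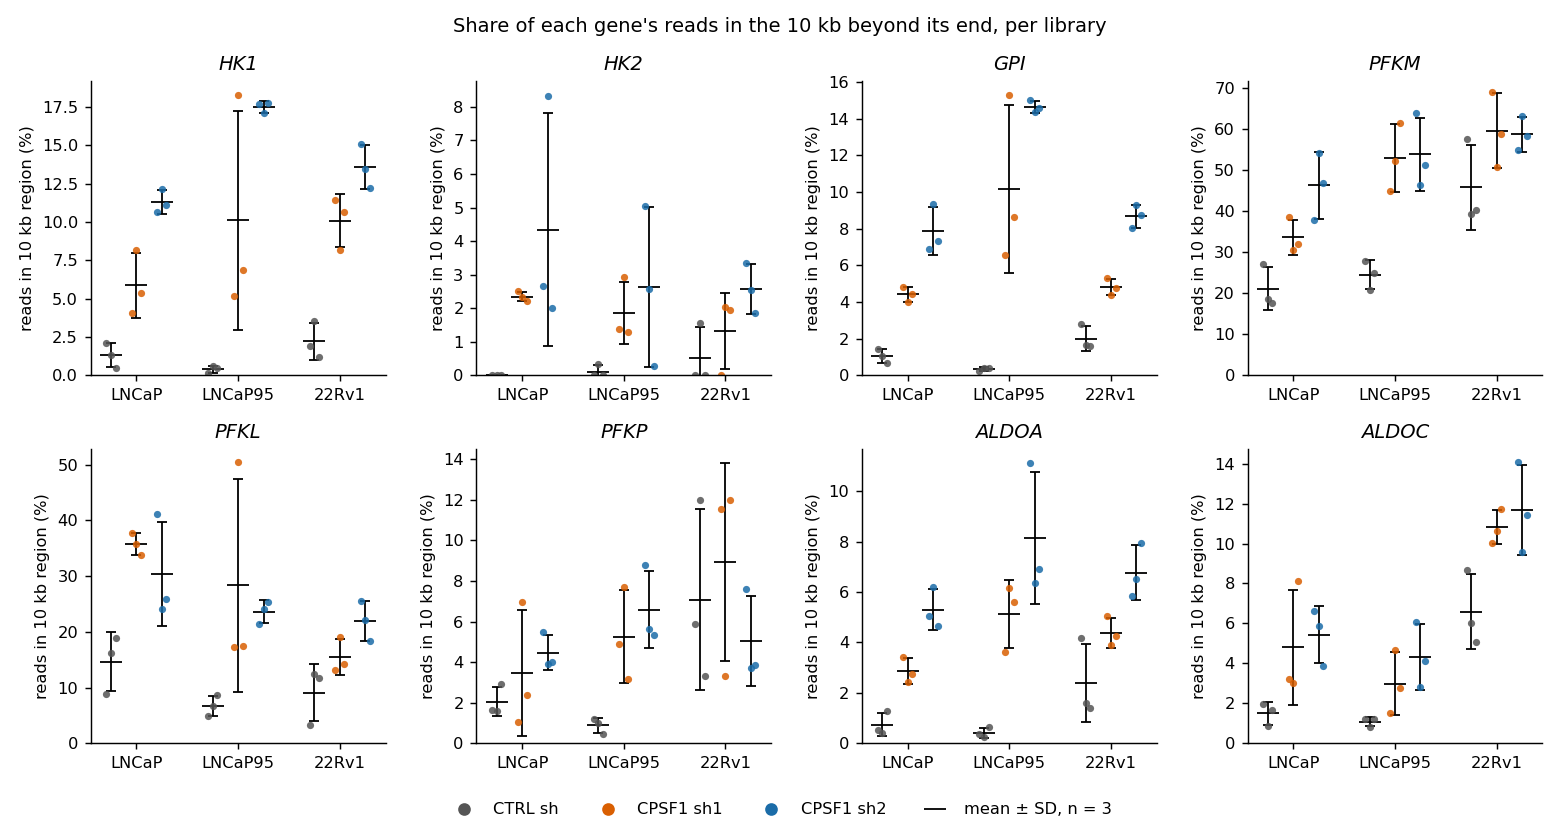
Share of each gene's reads that lie in the 10 kb beyond its end (percent of its reads in the 4 tables), with 1 point per library by line and shRNA. The mean share over the controls is highest for PFKM in each line, and in LNCaP95 the shares of HK1 and GPI rise from below 1% in all controls to between 5.169% and 18.29% with knockdown.

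Reads in introns and coding exons added little. Of the 7 genes tested in introns, 2 were called in LNCaP (GPI and PFKP, both lower; background 14.3%), 2 in LNCaP95 (HK2 and GPI, both lower; background 23.8%) and 0 in 22Rv1 (background 4.37%; 0 at an unadjusted p under 0.05 and 0 by DESeq2). All-gene intron calls with summed library sizes moved from 1033 higher and 668 lower to 537 and 1857 in LNCaP, from 1624 and 1351 to 1195 and 1307 in LNCaP95 and from 323 and 215 to 420 and 20 in 22Rv1. HK1 had many intron reads, 137 to 174 in LNCaP controls, with fitted changes of 0.04, 0.03 and 0.03 log2 units, not called. As a share of all HK1 reads, introns went from 36.6% ± 4.15 (SD, n = 3) to 23.2% ± 1.70 (n = 6) in LNCaP, with all knockdown libraries below all controls, and overlapped in LNCaP95 and 22Rv1. The HK1 ratio of intron to 3′ UTR reads in LNCaP was −0.47 ± 0.21 (adjusted p = 0.235 by edgeR). Relative to 3′ UTR reads, intron reads were called for 0 genes in LNCaP (background 3.69%), 1 in LNCaP95 (background 14.1%) and 0 in 22Rv1 (background 0.422%); the call was ALDOA, on 14, 2 and 2 intron reads in controls and 1 to 15 with knockdown (2.16 ± 0.56, adjusted p = 0.0117 by edgeR).

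Coding-exon reads were sparse. Only 2 of the 8 genes could be tested in LNCaP (background 7.1%) and LNCaP95 (background 12.5%) and 1 in 22Rv1 (background 1.01%), and 0 were called by edgeR or DESeq2. With summed library sizes the all-gene split moved from 186 higher and 162 lower to 75 and 145 in LNCaP and from 28 and 22 to 2 and 5 in 22Rv1. At an unadjusted p under 0.05 the count was 1, 1 and 0, with GPI at −1.96 in LNCaP (adjusted p = 0.22) and −2.17 in LNCaP95 (adjusted p = 0.0736). HK1 had 0 to 14 coding-exon reads in any library.

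Summed over the 4 tables, 4 genes fell in LNCaP (background 13.5%) and 1 rose (HK1, 0.43; background 14%). In LNCaP95 6 fell (background 16.8%) and 1 rose (PFKM, 0.37 ± 0.14, adjusted p = 0.0440 by edgeR; background 17.5%). In 22Rv1 1 fell (ALDOC, −1.23; background 2.99%) and 0 rose (background 4.58%). The sum over regions thus fell for GPI, PFKP, ALDOA and ALDOC in LNCaP and LNCaP95, also with the downstream reads counted.

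In LNCaP and LNCaP95 the shares of ALDOC and PFKP in their isozyme families fell. ALDOC supplied 28.7% ± 4.07 (SD, n = 3) of the aldolase 3′ UTR reads in LNCaP controls and 13.8% ± 3.29 (n = 6) in knockdown, a difference of −14.9 percentage points (exact two-sided permutation test, p = 0.0119; adjusted over the 12 isozyme tests p = 0.0357). In LNCaP95 it went from 40% ± 3.38 to 22.6% ± 5.24 (−17.4 points, exact p = 0.0119, adjusted p = 0.0357). The knockdown libraries lay below all controls in both lines. In 22Rv1 it went from 28.2% ± 9.13 to 15.7% ± 3.88 (−12.4 points, exact p = 0.0357, adjusted p = 0.0714), where control replicate 1 was at 38.68% and the other controls at 23.2% and 22.56%. Without that control the difference was −7.14 points (exact p = 0.107). The smallest p that 3 against 6 libraries allow is 0.0119.

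PFKP supplied 30.9% ± 2.58 of the phosphofructokinase 3′ UTR reads in LNCaP controls and 19.1% ± 3.45 in knockdown (−11.8 points, exact permutation p = 0.0119, adjusted p = 0.0357). In LNCaP95 it went from 51.0% ± 1.59 to 42.0% ± 3.27 (−9.08 points, exact p = 0.0119, adjusted p = 0.0357). PFKP was below all controls in every knockdown library of both lines. The annotated 3′ UTR counted for PFKM (32 intervals, 9397 bases) and PFKL (26 intervals, 9718 bases) is spread through the gene, against 2 intervals and 956 bases for PFKP. How far reads at internal positions enter these shares was not tested. In 22Rv1 it supplied 3.90% ± 1.62 and 5.32% ± 1.21 (exact p = 0.190, adjusted p = 0.286). The share of PFKL did not pass the test in any line (exact p = 0.702, 0.821 and 0.381), being 43.9% in LNCaP controls and 45.9% in knockdown, 26.4% and 27.3% for LNCaP95, and 56.2% and 49.3% for 22Rv1.

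HK2 supplied 52.1% ± 7.19 of the hexokinase 3′ UTR reads in LNCaP95 controls and 36.1% ± 8.15 in knockdown, with sh1 replicate 1 at 49.23% above 1 control at 46.17% (−16.0 points, exact permutation p = 0.0238, adjusted p = 0.0571). Without control replicate 2 the difference was −11.99 points (exact p = 0.179). In LNCaP the shares were 23.7% ± 5.34 and 17.8% ± 4.57 (exact p = 0.131, adjusted p = 0.225), and in 22Rv1 34.2% ± 16.2 and 32.3% ± 7.38 (exact p = 0.833).

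**Figure D4:**
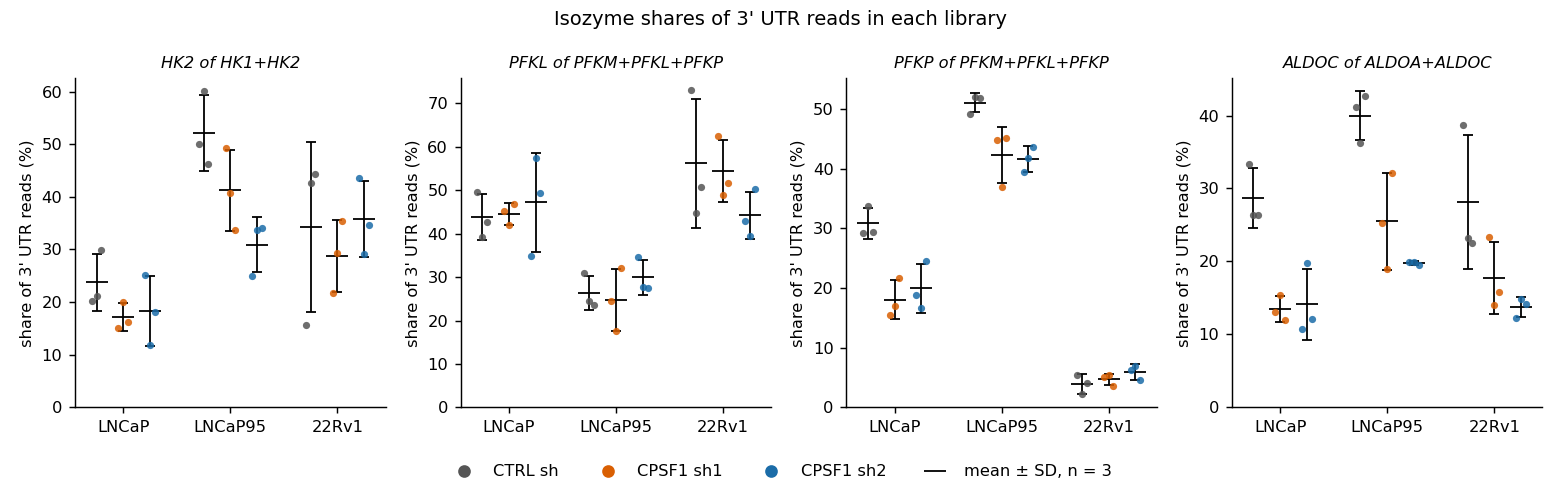
Share of HK2, PFKL, PFKP and ALDOC in the 3′ UTR reads of their isozyme family (percent), with 1 point per library by line and shRNA. The knockdown points of ALDOC and PFKP lie below every control in LNCaP and LNCaP95, and the HK2 and PFKL points overlap with the controls in every line.

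The knockdown change itself differed between lines for 6 of the genes, all but PFKM and PFKL. Between LNCaP95 and LNCaP 4 of 8 genes differed in the 3′ UTR table (background 9.58%): HK1 by −0.83 ± 0.19 (adjusted p = 0.00432 by edgeR), HK2 by −1.22 ± 0.38 (adjusted p = 0.0381), GPI by −0.65 (adjusted p = 0.00299) and ALDOA by −0.86 (adjusted p = 0.00183). The HK2 call was lost with a term for replicate number (adjusted p = 0.0652 by edgeR). Between 22Rv1 and LNCaP 2 differed (background 5.12%), GPI by 0.69 (adjusted p = 0.00401) and PFKP by 1.71 (adjusted p = 0.00472). Between 22Rv1 and LNCaP95 4 differed (background 10.7%), GPI by 1.34 (adjusted p = 1.31e-07), PFKP by 1.36 (adjusted p = 0.0130), ALDOA by 1.44 (adjusted p = 2.45e-06) and ALDOC by 1.51 (adjusted p = 0.00609). The fitted change of CPSF1 was also smallest in 22Rv1, and its part in these differences was not tested.

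In the 10 kb table the lines differed in 1 gene, GPI. Its rise was larger in LNCaP95 than in LNCaP by 1.55 ± 0.38 (adjusted p = 0.00839 by edgeR; background 2.45%) and smaller in 22Rv1 than in LNCaP95 by 1.63 (adjusted p = 0.00481; background 4.14%). Between 22Rv1 and LNCaP 0 members differed (background 0.948%; 0 at an unadjusted p under 0.05). HK1 differed by −1.90 between 22Rv1 and LNCaP95 with an adjusted p of 0.0560, at the threshold.

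Both shRNAs gave changes in the same direction for most of the genes. The sign of the difference from control was shared by 7, 8 and 6 of 8 genes in the 3′ UTR table of LNCaP, LNCaP95 and 22Rv1, and by 8, 8 and 7 of 8 in the 10 kb table. These 2 comparisons use the same control libraries, which by itself favours a shared sign, and the share over all genes was not computed. The values are therefore only given side by side. In the order LNCaP, LNCaP95, 22Rv1, the 3′ UTR change of ALDOC was −2.06 with sh1 and −2.06 with sh2, then −2.32 and −3.22, then −0.95 and −1.50 (log2 units). GPI was at −0.78 and −0.76, −1.29 and −1.59, and −0.08 and −0.13, and ALDOA at −0.68 and −0.75, −1.41 and −1.78, and −0.10 and −0.21. In the 10 kb table HK1 was at 2.15 and 2.74, 3.60 and 4.31, and 2.02 and 2.29, and GPI at 1.04 and 1.55, 2.804 and 2.927, and 0.81 and 1.65.

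Tested against each other, sh2 and sh1 differed in 0 of the 8 genes in the 3′ UTR table (background 0.0363% in LNCaP, 0% in LNCaP95 and 0.0522% in 22Rv1) and in 0 in the 10 kb table (background 0.119%, 0.00676% and 0.181%). At an unadjusted p under 0.05 the counts were 0, 3 and 1 in the 3′ UTR table and 1, 2 and 1 in the 10 kb table, and DESeq2 called 0 of the 8. The largest of these in the 3′ UTR table was ALDOC in LNCaP95, lower with sh2 by 0.88 ± 0.24 (adjusted p = 0.579 by edgeR). In LNCaP95 the sh1 libraries were uneven: their 10 kb share was 5.169%, 18.29% and 6.855% for HK1 and 6.577%, 15.3% and 8.616% for GPI, against 17.71%, 17.08% and 17.75% and 15%, 14.38% and 14.56% with sh2, so sh1 replicate 2 lay with the sh2 libraries.

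The genes around this segment gave the following counts. Of 9 lower glycolysis genes, from the triose phosphates to lactate, 4 fell in the 3′ UTR table in LNCaP, 8 in LNCaP95 and 1 in 22Rv1 by edgeR, beside 10.1%, 15.2% and 0.791% of all tested genes, and 0 rose. Their medians were −0.38, −0.85 and −0.17 log2 units, beside 0.02, 0.01 and −0.01 over all genes. ENO2, the neuronal enolase, had the largest fall, by 2.62 in LNCaP (adjusted p = 4.14e-06) and 2.24 in LNCaP95 (adjusted p = 1.34e-07), and its 10 kb reads fell too, by 1.67 and 1.41. In 22Rv1 its 3′ UTR reads were 0.03 higher (adjusted p = 0.971 by edgeR), not called. LDHA, the lactate dehydrogenase A subunit, had the largest rise in the 10 kb table, 3.65, 5.04 and 1.79 in the 3 lines. Of the 9 genes 2, 3 and 2 rose in the 10 kb reads of the lines, beside 9.52%, 17.6% and 7.25% of all tested genes. There 1, 1 and 2 fell, beside 5.2%, 10.1% and 2.77%.

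Of the 7 genes that make or remove fructose bisphosphates, 4 could be tested in the 3′ UTR table, of which 2 rose and 1 fell in LNCaP, 1 rose and 2 fell in LNCaP95 and 0 were called in 22Rv1 (all genes: 8.24% rose and 10.1% fell in LNCaP, 15.2% and 15.2% in LNCaP95). C12orf5, the older symbol of the fructose-2,6-bisphosphatase TIGAR, rose by 1.10 in LNCaP (adjusted p = 0.00904 by edgeR) and 1.42 in LNCaP95 (adjusted p = 0.00325), and PFKFB4, which makes the activator of phosphofructokinase, fell by 1.91 (adjusted p = 4.89e-06) and 1.94 (adjusted p = 4.42e-06). In 22Rv1 they were at 0.15 and −0.48, not called. Of the glucose transporters 3 of 5 tested fell in LNCaP95, where 15.2% of all tested genes fell, and 0 of 4 were called in LNCaP and 0 of 5 in 22Rv1. Of 8 tested genes at the branches from the hexose phosphates 2 fell in LNCaP, 2 in LNCaP95 and 0 in 22Rv1, beside 10.1%, 15.2% and 0.791% of all tested genes, so the LNCaP95 count is near the background. Of the other isozymes of these steps, 1, 1 and 2 could be tested in the 3′ UTR table, and 0 were called. So few genes cannot be set against the all-gene shares. In the 10 kb reads of LNCaP95, 1 of 4 such isozymes and 3 of 8 branch genes rose, beside 17.6% of all tested genes. Of the transporters 1 of 6 fell there, beside 10.1%. These lists had 0 calls in the 10 kb reads of LNCaP and 22Rv1. Of the fructose bisphosphate genes 1, 1 and 0 rose in the 10 kb reads of the 3 lines and 2, 1 and 0 fell (6, 7 and 5 tested).

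Across the 27 libraries, the genes whose 3′ UTR level followed a member's most closely (Pearson r of log2 CPM over 10164 genes, with line and depth shared by all points) were GPI and ALDOA for one another (r = 0.951), with FAM13A at 0.953 for GPI. ALDOC was nearest to MXI1 (0.969) and then GPI (0.935), PFKP to KLK3 (0.985) and PLOD1 (0.979), HK2 to SHFM1 (0.969) and PTTG1 (0.954), and HK1 to ACSL3 (0.929) and ACTB (0.924). ALDOA was followed next by SHISA4 (0.937). PFKL was nearest to POLR2I (0.917) and C19orf81 (0.908), and PFKM had the weakest neighbours, MRPL16 (0.874) and SDHC (0.830). These values describe the pattern over lines and knockdown together.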

How the data were processed

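PAC-seq libraries (27) were grouped by cell line and shRNA from the sample titles. The deposited values are raw read counts per gene that the authors made with featureCounts after trimming poly(A) from the reads with DPAC, each read going by its 3′-most base on the gene's strand to the 3′ UTR (extended by 300 bases), intron, coding exon or 10 kb downstream region of protein-coding genes in Ensembl GRCh37. The processing notes name HISAT2 2.1.0 and Subread 2.0.3. DPAC has a filter that drops poly(A) sites called in front of A-rich genomic sequence; whether it reached these tables is not given in the sources used here, and reads in overlapping regions may count for more than 1 gene.

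Counts of each table were tested with edgeR 4.0.16 (R 4.3.3, limma 3.58.1): genes above a mean of 2 CPM, TMM factors per table, quasi-likelihood F-test of 6 knockdown against 3 control libraries within a line, Benjamini-Hochberg adjustment over all tested genes, threshold 0.05. The ratio of 10 kb (or intron, or coding exon) to 3′ UTR reads and the difference between lines were tested as interaction terms. Isozyme shares were compared by exact two-sided permutation tests over libraries (84 arrangements). Printed CPM are TMM-scaled over all 27 libraries. Alternatives were RLE and summed library sizes, other filters, DESeq2 1.42.0, a replicate block and leaving out each library. The models were tested on simulated data. Figures and shares used Python 3.11.15, numpy 2.4.6, scipy 1.17.1 and matplotlib 3.10.9. The 8 genes were named with their coordinates from the hg19 annotation, pathway and marker lists were written by hand, and the members and lists were chosen with earlier results of these data known. The genes with values beside the 8 included counted same-strand genes whose 3′ UTR or coding exons overlap their 10 kb regions. The others were the 2 most correlated genes for each, and, per pathway list, the largest called change in each direction among genes called in at least 2 lines. Replicate numbers were not used as pairs in the main tests, and whether a number marks a shared batch is not given.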

Additional observations from a re-analysis of the deposited data

Results flagged for a closer look

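Of 60 groups of 6 knockdown libraries examined, 4 held a library far from the others, and chance gives about 1 in 20. In LNCaP the share of HK2 reads in the 10 kb was 8.33% in CPSF1 sh2 replicate 2, against 2.02% to 2.67% in the others, on 4 reads. In LNCaP95 the share of PFKL reads in the 10 kb was 50.5% in CPSF1 sh1 replicate 2, against 17.2% to 25.4%. In 22Rv1 PFKM was at 34.7 CPM in the 3′ UTR table in CPSF1 sh1 replicate 1, against 46.9 to 53.9, and the ALDOC share of aldolase reads in the same library was 23.3%, against 12.2% to 15.8%.

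The change with knockdown differed between lines in 12 tests, each an interaction term by edgeR. In the 3′ UTR table LNCaP95 minus LNCaP was −0.83 for HK1, −1.22 for HK2, −0.65 for GPI and −0.86 for ALDOA (log2 units). For 22Rv1 minus LNCaP it was 0.69 for GPI and 1.71 for PFKP, and for 22Rv1 minus LNCaP95 it was 1.34 for GPI, 1.36 for PFKP, 1.44 for ALDOA and 1.51 for ALDOC. In the 10 kb table it was 1.55 for GPI in LNCaP95 minus LNCaP and −1.63 in 22Rv1 minus LNCaP95.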

How the results depend on the processing

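Scaling was the choice that moved most. With summed library sizes, with or without composition factors, the number of the 8 genes that rose in the 10 kb table was 7 in LNCaP95 and 5 in 22Rv1, and the number with a higher ratio was 7 in LNCaP and 4 in 22Rv1. With composition factors GPI and HK1 then both differed in the 10 kb table between 22Rv1 and LNCaP95 (2 genes), as they did with RLE and with the replicate block. Over all 4 tables the PFKL share changed by −0.735 points in LNCaP95, a reversed sign, and by −10.3 points in 22Rv1 (exact permutation p = 0.0238). Signs turned for values that were not called: HK2 in the LNCaP 3′ UTR (0.00211, 0.115), PFKM in the LNCaP (0.0196) and 22Rv1 3′ UTR (−0.0818, −0.00482), HK1 in LNCaP (−0.248, −0.138) and LNCaP95 introns (−0.0390), PFKP in 22Rv1 introns (0.000308, 0.231, 0.306, 0.0107, 0.0123) and 10 kb (0.293, 0.353), ALDOA in 22Rv1 introns (0.00127), and the line difference of PFKM in the 10 kb, LNCaP95 minus LNCaP (0.266). The cause was not tested. Leaving out 1 library moved the intron count in LNCaP between 1 and 2 genes, the ratio count in LNCaP between 2 and 5 (2 without control replicate 3) and in 22Rv1 between 1 and 3. Taking LNCaP, LNCaP95 and 22Rv1 in that order, it moved the HK2 share from −7.72 to −2.89 points, −18.9 to −11.99 and −11.2 to 3.19, the PFKL share from −0.257 to 4.94, −0.470 to 3.22 and −12.6 to 1.496, and the ALDOC share in 22Rv1 from −15.2 to −7.14. Log2 changes whose sign turned ran from −0.197 to 0.211 for HK2 in the LNCaP 3′ UTR, −0.126 to 0.142 for HK1 and −0.207 to 0.353 for PFKM in the 22Rv1 3′ UTR, −0.0561 to 0.104, −0.0406 to 0.0742 and −0.0321 to 0.146 for HK1 introns in LNCaP, LNCaP95 and 22Rv1, −0.264 to 0.487 and −0.434 to 0.0245 for PFKM introns in LNCaP and LNCaP95, −0.0127 to 0.296 for GPI and −0.291 to 0.427 for PFKP introns in 22Rv1, −0.146 to 0.480 for PFKL and −0.723 to 0.519 for PFKP 10 kb reads in 22Rv1, and −0.108 to 0.863 and −1.18 to 0.405 for their ratios.

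Libraries with the same replicate number did not deviate together throughout. In each line 3 of 9 pairs had a correlation over 0.1 (−0.257 to 0.392 over all pairs). In 22Rv1 these 3 were the pairs of CTRL sh with CPSF1 sh1 (0.392, 0.253 and 0.118). Whether a number marks a shared batch is not given. The replicate block ended the HK2 difference between LNCaP95 and LNCaP in the 3′ UTR (−1.20, adjusted p = 0.0652 by edgeR), brought the HK1 difference in the 10 kb named above and changed no other call. Few reads in the 10 kb table limit HK2 and PFKP, and few in the coding-exon table limit all 8.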
